A study of Homo sapiens with 9 samples.

Results

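Glycolysis splits glucose into pyruvate through a chain of cytosolic enzymes, and lactate dehydrogenase then converts pyruvate to lactate. Hypoxia-inducible factors (HIFs) are transcription factors whose alpha subunit is hydroxylated by oxygen-dependent prolyl hydroxylases and then destroyed through the VHL ubiquitin ligase, so that their target genes are switched on when oxygen is short. Many glycolytic genes are also HIF targets, and tumour cells often keep glycolysis high even with oxygen present. The members described here are 40 genes of the 23369 in the deposited table, taken by gene symbol from a list of pathway members that was drawn up with earlier results of these data known: 17 glycolytic enzymes and lactate dehydrogenases, 4 glucose and lactate transporters, and 19 HIF factors and other hypoxia-inducible genes. Of these, 39 were found under their own symbol, and PKM was found under its older symbol PKM2, as RefSeq lists it.

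RNA was sequenced from NCI-H1155, an established human neuroendocrine large-cell lung cancer line, in 9 libraries. The groups were cells given 1 µM foretinib for 4 h, cells given 1 µM cabozantinib for 4 h, and cells given the solvent DMSO, with 3 libraries each. Drugs were added 24 h after plating. The labels call the libraries biological triplicates of 1 cell line, and give DMSO no time of its own. Foretinib and cabozantinib are inhibitors of MET, VEGF receptors and other tyrosine kinases. They share a quinoline-ether and cyclopropane-dicarboxamide skeleton, and foretinib carries a morpholinopropoxy group and an additional fluorine that cabozantinib lacks. Libraries are named by the numbers in their titles: 1, 2 and 4 for foretinib, 3, 4 and 5 for cabozantinib, and 2, 4 and 5 for DMSO.

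The value of a gene in a library was its read count divided by 1 size factor for that library, called the normalised read count here. Whole-library totals were 26996023 to 34062153 reads with foretinib, 27264766 to 27522332 with cabozantinib and 27257862 to 32986439 with DMSO. All 8 neuroendocrine markers had a mean above 100, while 4 of 5 leukocyte and 3 of 4 endothelial markers were at 0 in every library. Of the epithelial markers 3 of 4, and of the fibroblast markers 2 of 5 (COL1A1 and COL1A2), had a mean above 100. Of the 12642 genes tested, 18.5% ± 2.38 were listed at 0 in a foretinib library, 5.01% ± 0.544 in a cabozantinib library and 7.25% ± 3.14 in a DMSO library (SD, n = 3 each). DMSO replicate 2 stood apart from the other DMSO libraries with 10.9%. The difference between groups lay almost entirely in genes with few reads, and its part in the results for such members was not tested. In RNA from whole cultures, fewer cells using a gene and less of its RNA per cell cannot be told apart.

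Members fell into abundant and scarce genes. Over the 9 libraries, 21 of 40 averaged at least 1000 normalised reads, 15 averaged less but passed the filter for testing (at least 3 libraries with 10 or more normalised reads), and 4 did not pass it. The abundant set held 13 of the 17 enzymes, 1 of the 4 transporters (SLC16A1), and 7 of the 19 HIF factors and other hypoxia-inducible genes (PDK1, PDK3, VEGFA, BNIP3, BNIP3L, EGLN1 and HIF1A). The classic targets CA9, a carbonic anhydrase often used as a marker of hypoxia, and SLC16A3, the lactate exporter MCT4, were listed at 0 in all 9 libraries. ADM, the peptide hormone adrenomedullin, and ANKRD37 had reads in 2 libraries each. ADM had 218 and 43.1 normalised reads in DMSO replicates 4 and 5, and ANKRD37 had 1.99 in cabozantinib replicate 4 and 179 in DMSO replicate 4.

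**Figure D1:**
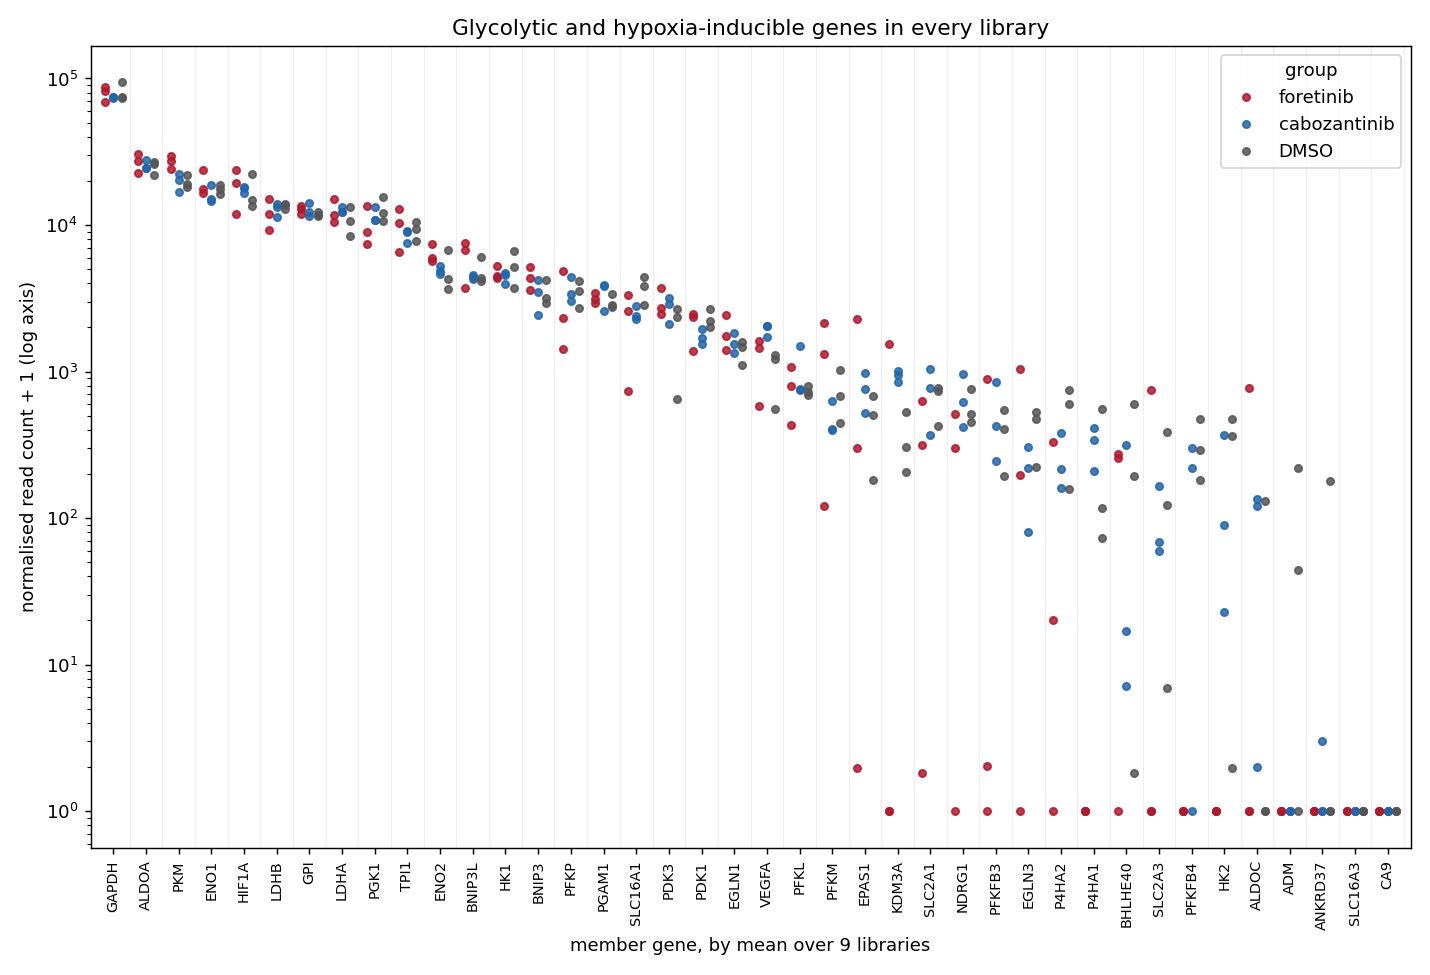
Normalised read count + 1 (log axis) of each of the 40 members in every library, with foretinib left, cabozantinib in the middle and DMSO right within each gene, ordered by the mean over 9 libraries. The 21 genes at a mean of 1000 or more have reads in every library, and the points at the bottom, where the read count is 0, lie mostly in the foretinib columns.

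No member passed the test in any comparison. With limma on log2(value + 1) and p adjusted over all 12642 genes, 0 of 36 tested members passed 0.05 between foretinib and DMSO, as did 0% of all genes, and the same 0 of 36 and 0% were found between cabozantinib and DMSO and between foretinib and cabozantinib. At an unadjusted p under 0.05 there were 4 of 36 members between foretinib and DMSO against 9.07% of all genes, 0 of 36 between cabozantinib and DMSO against 1.31%, and 4 of 36 between foretinib and cabozantinib against 9.9%. The 4 members are 11.1% of those tested in both comparisons with foretinib, near the share over all genes. The 40 members together took 0.956% ± 0.0783 of all normalised reads with foretinib, 0.919% ± 0.0206 with cabozantinib and 0.950% ± 0.0416 with DMSO (SD, n = 3 each).

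Counting reads gave a different number of calls with 1 tool. DESeq2, run on the whole reads recovered from the deposited values, called 4 of 36 members between foretinib and DMSO, where it called 5.19% of all genes. These were PKM, which was higher, and HK2, PFKFB4 and P4HA1. The latter 3 were listed at 0 in all 3 foretinib libraries and passed the filter only through the other groups. Between foretinib and cabozantinib DESeq2 called HK2, PFKFB4 and P4HA1, 3 of 36 members against 4.91% of all genes. Between cabozantinib and DMSO it called 0 of 36 against 0.388%. Genes to which DESeq2 gave no adjusted p, among them ALDOC and KDM3A, stay in these counts and shares as not called. edgeR's quasi-likelihood test on the same reads called 0 of 36 members and 0% of all genes in each comparison.

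The abundant members had median fold changes near 0. The median log2 fold change was 0.11 with foretinib over DMSO, 0.00 with cabozantinib over DMSO and 0.09 with foretinib over cabozantinib, beside -0.03, 0.01 and -0.04 over all 5488 genes at such a mean. Single log2 fold changes ran between -0.98 and 0.87 with foretinib over DMSO, between -0.55 and 1.01 with cabozantinib over DMSO, and between -0.79 and 0.45 with foretinib over cabozantinib. The half-width of their 95% intervals was 0.28 to 1.17 on the log2 scale, so that for the least precise of them a doubling lay inside the interval. The intervals held 0 for 20 of the 21 genes in both comparisons with foretinib, where PKM was the gene outside, and for all 21 between cabozantinib and DMSO.

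Members also differed in how much they varied within a group. For the 9 members at a mean of 10000 or more, the median coefficient of variation between libraries was 19.4% with foretinib, 10.0% with cabozantinib and 10.5% with DMSO, beside 16.7%, 10.0% and 12.3% over the 376 genes of that level. For the 8 tested members between 300 and 1000 it was 117% with foretinib, 42.0% with cabozantinib and 40.6% with DMSO, beside 90.2%, 41.1% and 48.2% over 3771 genes. The foretinib libraries thus varied most among scarce members, as they did among all genes of like level.

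**Figure D2:**
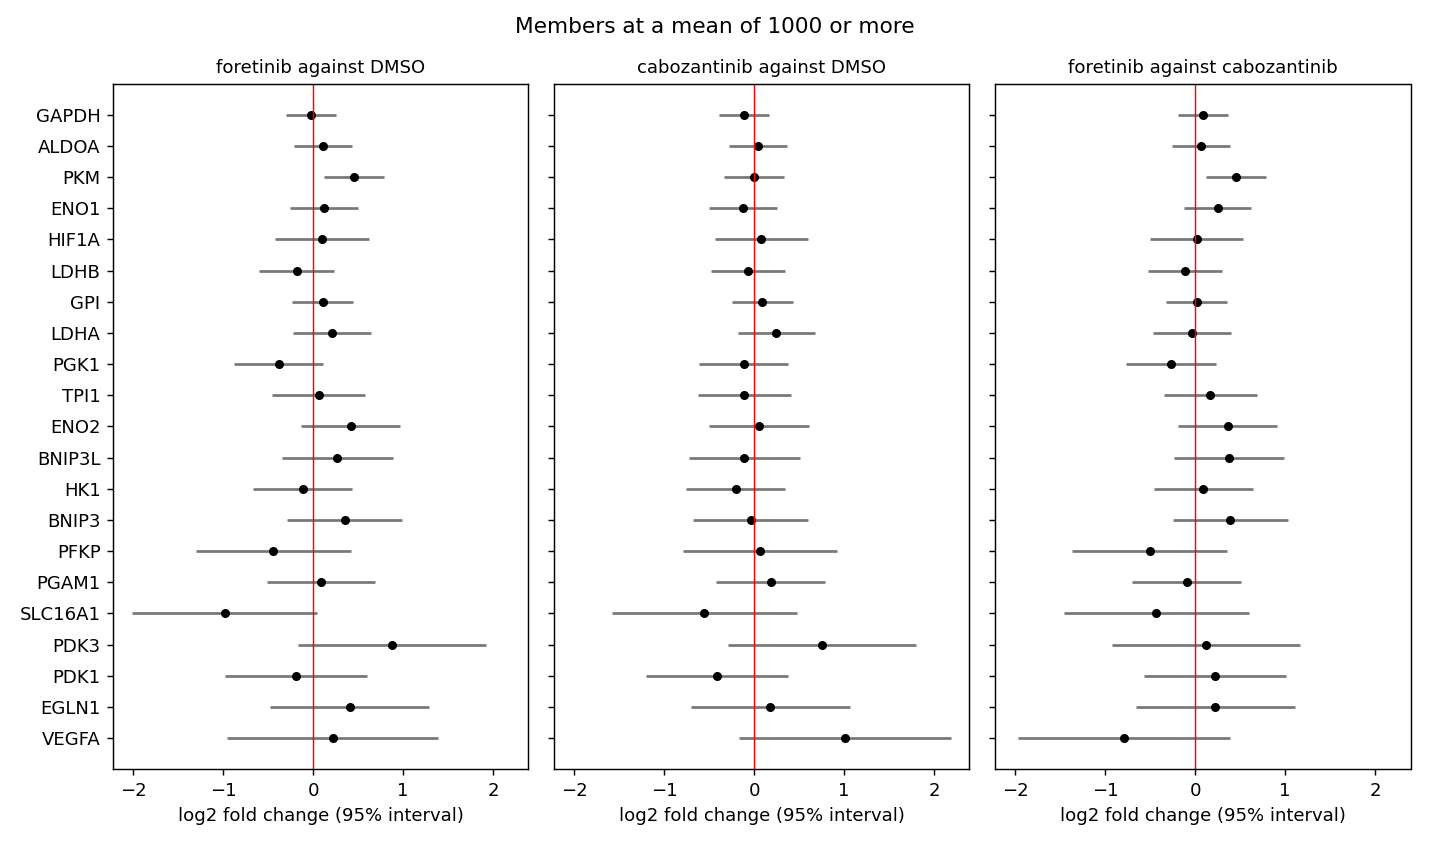
Log2 fold change (horizontal axis, on the log2(value + 1) scale) of the 21 members at a mean of 1000 or more, with 95% intervals from limma as bars, in the 3 comparisons, 1 per panel. The intervals of PKM lie above 0 in both comparisons with foretinib, at 0.46 and 0.45, and all others reach 0.

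PKM encodes pyruvate kinase, which makes pyruvate and ATP in the last step of glycolysis. It had 27199, 29714 and 24161 normalised reads in the foretinib libraries, 20307, 16771 and 22267 in the cabozantinib libraries, and 18208, 18912 and 21954 in the DMSO libraries. Every foretinib library lay above every other library, and the cabozantinib and DMSO values overlapped. The means were 27025 ± 2781 with foretinib, 19782 ± 2785 with cabozantinib and 19691 ± 1991 with DMSO (SD, n = 3 each), 1.37-fold higher with foretinib than with either. The log2 fold change against DMSO was 0.46 (SE 0.16, 95% interval 0.12 to 0.79, limma p 0.0113, adjusted p 0.425), and 0.42 relative to genes of like level. Against cabozantinib it was 0.45 (0.12 to 0.79, adjusted p 0.393), and cabozantinib against DMSO gave 0.00 (-0.33 to 0.34). Over the alternatives run, the log2 fold change against DMSO was 0.36 to 0.54, with an adjusted p between 0.0438 and 0.776 that fell below 0.05 with DESeq2 alone. The table has 1 row for the gene, so that the M1 and M2 splice forms were not separated.

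Among members whose groups did not overlap, PKM was the 1 higher with foretinib than with DMSO. HK2, PFKFB4 and P4HA1, which passed the filter only through the other groups, were the 3 lower. Together these are 4 of 36, where 11.7% of all genes did not overlap (3.99% higher and 7.69% lower). Between foretinib and cabozantinib there were 5 of 36 beside 14.2% of all genes (4.49% higher and 9.7% lower): PKM and ENO2 were higher, and HK2, P4HA1 and VEGFA were lower. Between cabozantinib and DMSO there were 4 of 36 beside 9.9% (5.18% higher and 4.71% lower), with VEGFA and KDM3A higher and SLC16A1 and PDK1 lower. All of these counts lie near the share over all genes.

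Promoter sequence is shown for 4 of the 6 genes whose groups did not overlap in a comparison with foretinib, PKM and ENO2 on the higher side and P4HA1 and PFKFB4 on the lower; HK2 and VEGFA are not shown. Each run is the 250 bases before the gene's start, 5′ to 3′ on the gene's strand, from RefSeq on GRCh38.p14, which is not the build of the deposited counts. Capitals mark a match to the core letters of the hypoxia response element, searched as ACGTG and GCGTG on both strands, so that a match on the other strand reads CACGT or CACGC and the palindrome CACGTG counts on both. PKM is at chr15:72231191-72231440 (minus strand), ENO2 at chr12:6914330-6914579 (plus strand), P4HA1 at chr10:73096867-73097116 (minus strand) and PFKFB4 at chr3:48556804-48557053 (minus strand).
PKM: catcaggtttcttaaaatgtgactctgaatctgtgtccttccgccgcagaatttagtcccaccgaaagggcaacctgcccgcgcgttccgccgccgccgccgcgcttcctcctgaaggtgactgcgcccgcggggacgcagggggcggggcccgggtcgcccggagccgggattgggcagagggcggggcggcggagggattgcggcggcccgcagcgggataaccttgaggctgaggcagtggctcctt
ENO2: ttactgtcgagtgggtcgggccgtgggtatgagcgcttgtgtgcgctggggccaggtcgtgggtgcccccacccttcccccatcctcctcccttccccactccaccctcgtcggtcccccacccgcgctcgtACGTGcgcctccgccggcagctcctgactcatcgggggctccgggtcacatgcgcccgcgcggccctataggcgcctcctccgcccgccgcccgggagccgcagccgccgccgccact
P4HA1: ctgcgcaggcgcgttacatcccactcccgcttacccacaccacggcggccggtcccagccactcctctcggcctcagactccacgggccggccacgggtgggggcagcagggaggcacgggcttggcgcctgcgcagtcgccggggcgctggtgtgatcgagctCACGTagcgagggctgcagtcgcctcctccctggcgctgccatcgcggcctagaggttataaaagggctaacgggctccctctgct
PFKFB4: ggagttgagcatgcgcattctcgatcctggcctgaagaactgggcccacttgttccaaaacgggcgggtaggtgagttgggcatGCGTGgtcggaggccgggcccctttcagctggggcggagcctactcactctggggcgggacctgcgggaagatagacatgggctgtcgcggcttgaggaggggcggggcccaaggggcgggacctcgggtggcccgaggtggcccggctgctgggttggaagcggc
The PKM window held 0 matches, and the others held 1 each, at 118 bases before the start in ENO2, 86 in P4HA1 and 166 in PFKFB4. RefSeq promoters were counted for 35 of the 40 members, with 63 entries because some genes have several starts. The other members were left out of this count, which does not mean that they lack a match. A match was present in 38 of these entries (60.3%), and in 15172 of all 35116 entries of the same length (43.2%). Because members were left out, these shares do not rest on like sets, and their difference was not tested. A match describes letters in the window and was not tested as a binding site.

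The glycolytic enzymes and lactate dehydrogenases summed to 229281 ± 14809 normalised reads with foretinib, 212327 ± 2929 with cabozantinib and 219583 ± 10381 with DMSO (SD, n = 3 each). The foretinib mean was 1.04 of the DMSO mean (two-sided exact permutation p 0.4) and 1.08 of the cabozantinib mean (exact permutation p 0.3), and the cabozantinib mean was 0.967 of the DMSO mean (exact permutation p 0.3). With 3 libraries against 3, the smallest p such a test can give is 0.10. The groups overlapped in each of the 3 comparisons.

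**Figure D3:**
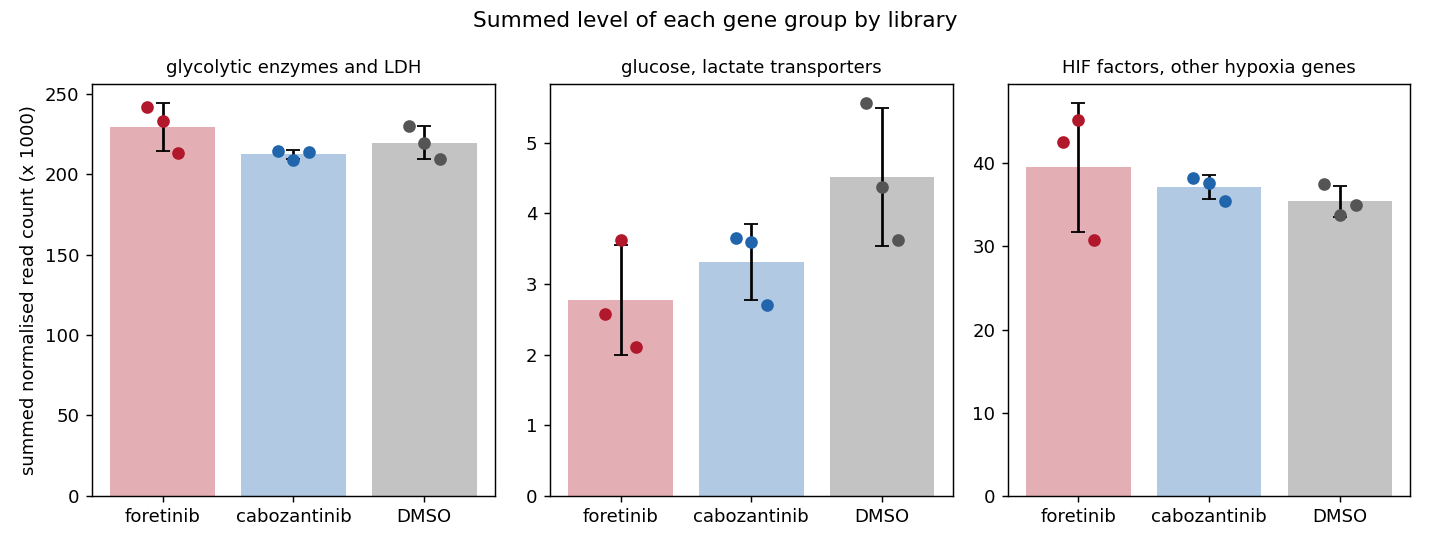
Summed normalised read count (axis in units of 1000) of the 17 enzymes, the 4 transporters and the 19 HIF factors and other hypoxia-inducible genes in each library, for foretinib, cabozantinib and DMSO; points are libraries, bars are means and error bars are SD (n = 3). The transporter sum averages 2772 with foretinib, 3317 with cabozantinib and 4522 with DMSO, and the ratios of means in the other panels are nearer to 1.

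Per kilobase of transcript, the order of the enzymes was set by a few genes. GAPDH, which oxidises glyceraldehyde phosphate, stood at 58938 ± 6990 normalised reads per kilobase with foretinib, 55088 ± 747 with cabozantinib and 60044 ± 8476 with DMSO. ALDOA, the aldolase that splits fructose bisphosphate, followed at 17426 ± 2599 per kilobase with foretinib, 16586 ± 1145 with cabozantinib and 16109 ± 1684 with DMSO. Both stood apart from the next genes in every library. LDHB, ENO1, PKM and TPI1 came next, with means in DMSO of 9483 ± 402, 8507 ± 592, 7247 ± 733 and 7500 ± 1151 per kilobase, and neighbours among ENO1, PKM and TPI1 overlapped there. With foretinib PKM averaged 9947 ± 1023 per kilobase, and LDHB 8516 ± 2097, and their libraries overlapped. Lengths are medians of GENCODE principal transcripts, so levels between genes carry that choice.

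Among the most abundant enzymes, GAPDH, ALDOA and GPI overlapped between the groups, unlike PKM. GAPDH had 86889, 82605 and 68853 normalised reads with foretinib, 74413, 73182 and 75179 with cabozantinib, and 94092, 75259 and 73468 with DMSO. The values overlapped in every comparison, and foretinib against DMSO gave a log2 fold change of -0.02 (95% interval -0.30 to 0.25). ALDOA had 22748, 30756 and 27524 with foretinib, 27756, 24692 and 24676 with cabozantinib, and 25895, 26990 and 22022 with DMSO, a log2 fold change against DMSO of 0.11 (-0.22 to 0.43) with foretinib. GPI, the isomerase at the second step, had 12958, 11959 and 13416 with foretinib, 11592, 12314 and 14059 with cabozantinib, and 11569, 12320 and 11676 with DMSO. GPI varied least with foretinib and DMSO among these genes, and its groups overlapped, with 0.11 (-0.23 to 0.44) for foretinib against DMSO.

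ENO1 and ENO2 encode enolases, which make phosphoenolpyruvate, and ENO2 is the form known as a marker of neuroendocrine cells. ENO1 had 23824, 16422 and 17728 normalised reads with foretinib, 14987, 18804 and 14654 with cabozantinib, and 18733, 16293 and 17622 with DMSO, and its groups overlapped. ENO2 had 7375, 5978 and 5686 with foretinib, 5270, 4631 and 4847 with cabozantinib, and 6766, 3662 and 4259 with DMSO. Every foretinib library was above every cabozantinib library for ENO2, while DMSO replicate 2 lay among the foretinib values. The 8 neuroendocrine markers summed to 61346 to 68261 normalised reads with foretinib, 63481 to 67699 with cabozantinib and 54254 to 57267 with DMSO. This sum weighs markers by their reads, and single markers did not all follow it. NEUROD1 had 17709 to 18787 with cabozantinib and 13249 to 13907 with DMSO. SYP went the other way, with 2209 to 3669 with cabozantinib and 4294 to 4979 with DMSO. The part of the marker levels in the ENO2 values was not tested. For ENO2 the log2 fold change was 0.36 for foretinib against cabozantinib (95% interval -0.19 to 0.91, adjusted p 0.599) and 0.42 for foretinib against DMSO (-0.14 to 0.97, adjusted p 0.559).

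PGK1, which makes the first ATP of the pathway, had 13532, 8942 and 7415 normalised reads with foretinib, 10796, 10858 and 13359 with cabozantinib, and 10664, 15522 and 12021 with DMSO. Foretinib replicates 2 and 4 were the lowest of the 9, but replicate 1 lay among the others, and the log2 fold change of foretinib against DMSO was -0.38 (-0.88 to 0.11, adjusted p 0.548). TPI1, the triose isomerase, had 12797, 6584 and 10331 with foretinib, 9155, 7488 and 8909 with cabozantinib, and 10540, 9429 and 7729 with DMSO, with the foretinib libraries holding both the highest and the lowest value. PGK1 and PKM, the steps that yield ATP, thus had means on opposite sides of DMSO in foretinib cells, and PKM alone did not overlap. HK1 and PGAM1 had overlapping groups in every comparison, with means in foretinib cells of 4689 ± 479 and 3174 ± 246.

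Lactate dehydrogenase converts pyruvate to lactate and back, with LDHA the hypoxia-inducible subunit. LDHA had 10504, 15157 and 11684 normalised reads with foretinib, 12317, 13369 and 12188 with cabozantinib, and 8459, 13226 and 10706 with DMSO. LDHB had 11931, 9206 and 15156 with foretinib, 13917, 13325 and 11350 with cabozantinib, and 12824, 13685 and 13904 with DMSO. Groups overlapped for both subunits in each comparison. The log2 fold change against DMSO was 0.21 for LDHA with foretinib (-0.22 to 0.64) and 0.25 with cabozantinib (-0.18 to 0.68), and for LDHB it was -0.18 with foretinib (-0.60 to 0.23) and -0.07 with cabozantinib (-0.48 to 0.34).

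The early steps of glycolysis, hexokinase and phosphofructokinase, include scarce isozymes. HK2, the hexokinase that HIF induces and many tumours use, was listed at 0 in all 3 foretinib libraries, against 367, 21.9 and 89.0 normalised reads with cabozantinib and 363, 475 and 0.979 with DMSO. No fold is given against a group at 0. The limma test gave an adjusted p of 0.528 against DMSO and 0.462 against cabozantinib, and DESeq2 gave 0.00087 and 0.0034. The smallest DMSO value, 0.979, is 1 read, so that HK2 was as good as absent from 1 DMSO library as well. PFKL, PFKM and PFKP, which encode phosphofructokinase subunits, overlapped between groups in every comparison, and PFKM ran from 119 to 2136 normalised reads among the foretinib libraries alone. ALDOC, a brain aldolase, was listed at 0 in 4 of the 9 libraries and had 776 in foretinib replicate 4.

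Glucose enters cells through GLUT transporters and lactate crosses the membrane through monocarboxylate transporters. SLC16A1, the transporter MCT1, had 2581, 3316 and 732 normalised reads with foretinib, 2822, 2393 and 2273 with cabozantinib, and 4447, 3834 and 2842 with DMSO. All 3 cabozantinib libraries were below the DMSO libraries, the nearest pair being 2822 and 2842, and foretinib replicate 2 lay between the DMSO values. The log2 fold change against DMSO was -0.98 with foretinib (-2.01 to 0.04, adjusted p 0.531) and -0.55 with cabozantinib (-1.58 to 0.47, adjusted p 0.9998). Without foretinib replicate 4 the foretinib value was -0.32.

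SLC2A1, the glucose transporter GLUT1, had 0.822, 312 and 625 normalised reads with foretinib, 767, 1042 and 366 with cabozantinib, and 732, 425 and 775 with DMSO. In foretinib replicate 1 this is 1 read, and the groups overlapped, with an adjusted p of 0.547 for foretinib against DMSO. SLC2A3, the glucose transporter GLUT3, was listed at 0 in foretinib replicates 1 and 2 and had 749 in replicate 4. The 4 transporters summed to 2772 ± 779 with foretinib, 3317 ± 538 with cabozantinib and 4522 ± 977 with DMSO (SD, n = 3 each). The foretinib mean was 0.613 of the DMSO mean (two-sided exact permutation p 0.2) and 0.836 of the cabozantinib mean (exact permutation p 0.3), and the cabozantinib mean was 0.734 of the DMSO mean (exact permutation p 0.2). SLC16A1 makes up most of the mean sum in each group, but in foretinib replicate 4 SLC2A3 was the larger.

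HIF1A and EPAS1 encode the alpha subunits HIF-1α and HIF-2α, whose activity is set largely by protein stability and not by RNA level. HIF1A was among the most abundant members, with 19464, 23656 and 11979 normalised reads with foretinib, 18106, 17764 and 16524 with cabozantinib, and 22391, 13551 and 14838 with DMSO. Its groups overlapped in each comparison, and the log2 fold change against DMSO was 0.10 with foretinib (-0.42 to 0.62) and 0.08 with cabozantinib (-0.44 to 0.60). EPAS1 was scarcer and uneven, with 302, 0.960 and 2282 with foretinib, 764, 980 and 518 with cabozantinib, and 182, 505 and 675 with DMSO. The foretinib libraries held both the highest and the lowest EPAS1 value of the 9. EGLN1, the main prolyl hydroxylase that marks HIF-α for destruction, averaged 1862 ± 535 with foretinib, 1564 ± 245 with cabozantinib and 1383 ± 247 with DMSO, and its groups overlapped in each comparison. EGLN3, a hypoxia-induced hydroxylase of the same family, was listed at 0 in foretinib replicate 4 and at 1044 in foretinib replicate 2.

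VEGFA, the angiogenic growth factor and a textbook HIF target, had 581, 1452 and 1621 normalised reads with foretinib, 1715, 2033 and 2029 with cabozantinib, and 552, 1301 and 1208 with DMSO. The cabozantinib libraries were above all others, and the foretinib and DMSO values overlapped. VEGFA averaged 1926 ± 182 with cabozantinib and 1020 ± 408 with DMSO (SD, n = 3 each), a log2 fold change of 1.01 (-0.17 to 2.18) with a limma p of 0.0865 and an adjusted p of 0.9998. It was 0.61 without DMSO replicate 2. Foretinib against cabozantinib gave -0.79 (-1.96 to 0.38, adjusted p 0.588), -0.32 without foretinib replicate 1, and -0.003 with the title numbers as a replicate block.

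**Figure D4:**
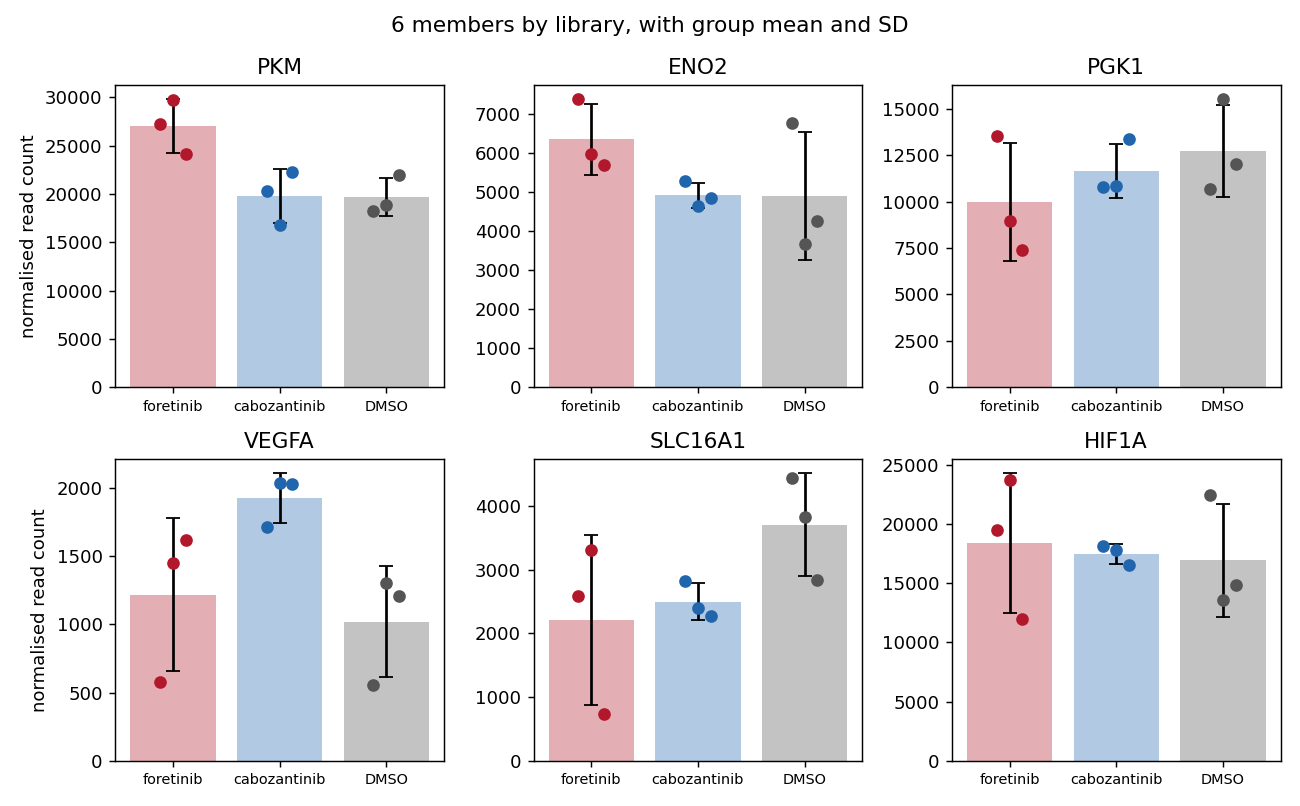
Normalised read counts of PKM, ENO2, PGK1, VEGFA, SLC16A1 and HIF1A by library for foretinib, cabozantinib and DMSO; points are libraries, bars are means and error bars are SD (n = 3). PKM is highest in the 3 foretinib libraries (24161 to 29714) and VEGFA in the 3 cabozantinib libraries (1715 to 2033). ENO2 does not overlap between foretinib and cabozantinib, nor SLC16A1 between cabozantinib and DMSO. PGK1 and HIF1A overlap between all groups.

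Pyruvate dehydrogenase kinases inhibit pyruvate dehydrogenase, the enzyme that uses pyruvate in the mitochondria. PDK1 had 2482, 1386 and 2348 normalised reads with foretinib, 1702, 1547 and 1944 with cabozantinib, and 2195, 2691 and 2019 with DMSO. The cabozantinib libraries lay below the DMSO libraries, at a log2 fold change of -0.41 (-1.20 to 0.38, adjusted p 0.9998), and foretinib overlapped with both. PDK3 had 2720, 3715 and 2459 with foretinib, 2896, 3180 and 2098 with cabozantinib, and 645, 2344 and 2668 with DMSO. DMSO replicate 2, at 645, was the lowest PDK3 value, and against DMSO the log2 fold change was 0.87 with foretinib (-0.17 to 1.92, adjusted p 0.532) and 0.75 with cabozantinib (-0.29 to 1.80). Without DMSO replicate 2 these were 0.22 with foretinib and 0.10 with cabozantinib. BNIP3 and BNIP3L, which drive mitophagy, averaged 4372 ± 811 and 6012 ± 2021 with foretinib, 3382 ± 914 and 4424 ± 152 with cabozantinib, and 3431 ± 690 and 4838 ± 1055 with DMSO, and both genes overlapped between groups in every comparison.

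The remaining hypoxia-inducible genes were scarce. P4HA1 and P4HA2 encode the catalytic subunits of collagen prolyl 4-hydroxylase. P4HA1 was listed at 0 in all 3 foretinib libraries, and had 342, 208 and 413 normalised reads with cabozantinib and 116, 72.3 and 550 with DMSO. All 6 other libraries were above 0, and limma gave an adjusted p of 0.381 against DMSO and 0.377 against cabozantinib, with a range over the alternatives of 3.2e-05 to 0.717 and of 1.6e-05 to 0.722, the low ends from DESeq2. P4HA2 had 328, 19.2 and 0 with foretinib, 382, 216 and 161 with cabozantinib, and 742, 158 and 604 with DMSO, with overlap between all groups.

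PFKFB3 and PFKFB4 make fructose 2,6-bisphosphate, the activator of phosphofructokinase. PFKFB4 was listed at 0 in all 3 foretinib libraries, and had 0, 302 and 219 normalised reads with cabozantinib and 290, 470 and 181 with DMSO. It overlapped with cabozantinib, which has a library at 0, and not with DMSO (limma adjusted p 0.406, DESeq2 0.00076). PFKFB3 had 0, 893 and 1.05 with foretinib, 425, 841 and 245 with cabozantinib, and 403, 546 and 194 with DMSO, so that 1 foretinib library held nearly all its reads there.

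KDM3A, a histone H3K9 demethylase induced by HIF, had 1552, 0 and 0 normalised reads with foretinib, 852, 1002 and 950 with cabozantinib, and 304, 206 and 533 with DMSO. The cabozantinib libraries were above the DMSO libraries, 2.69-fold by the ratio of means, but the log2 fold change of 1.53 had an interval from -3.93 to 6.99, set by a spread shared with the foretinib libraries. Foretinib overlapped with both, its replicate 1 holding the highest and replicates 2 and 4 the lowest values of the 9. NDRG1, a stress-response gene strongly induced by hypoxia, was listed at 0 in foretinib replicate 4 and between 298 and 965 in the other libraries. BHLHE40, a transcriptional repressor, was uneven in every group and overlapped in each comparison.

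The 19 HIF factors and other hypoxia-inducible genes summed to 39519 ± 7722 normalised reads with foretinib, 37135 ± 1460 with cabozantinib and 35424 ± 1881 with DMSO (SD, n = 3 each). The foretinib mean was 1.12 of the DMSO mean (two-sided exact permutation p 0.4) and 1.06 of the cabozantinib mean (exact permutation p 0.6), and the cabozantinib mean was 1.05 of the DMSO mean (exact permutation p 0.2). Without HIF1A, the foretinib mean of the other 18 genes was 1.14 of the DMSO mean (exact permutation p 0.4) and 1.08 of the cabozantinib mean (exact permutation p 0.4).

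Values of 0 gathered in the foretinib libraries among scarce members, as they did among scarce genes in general. The 15 tested members below a mean of 1000 were at 0 in 20 of 45 values with foretinib (44.4%), 1 of 45 with cabozantinib (2.22%) and 2 of 45 with DMSO (4.44%). Over all 7154 tested genes below that mean the shares were 32.5% with foretinib, 8.85% with cabozantinib and 12.8% with DMSO. These genes include 1229 at a mean of at most 100, where no tested member lay, so the sets are not of like level. HK2, PFKFB4 and P4HA1, the 3 of 15 at 0 in all 3 foretinib libraries, passed the filter only through the other groups, and 9.25% of the 7154 genes were likewise at 0 in all 3. The 21 abundant members had no value of 0 in any group. For genes averaging 100 to 300 normalised reads the median log2 fold change of foretinib against DMSO was -2.06 over all genes, for 300 to 1000 it was -1.06, and for 1000 to 3000 it was -0.08. The median over the 36 tested members was -0.08, beside -0.34 over all genes. For cabozantinib against DMSO it was 0.06 beside 0.04, and for foretinib against cabozantinib -0.10 beside -0.44.

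Genes of neighbouring pathways, listed by role, gave no call with limma or edgeR. Of 81 such genes in 5 lists, 66 were tested. With limma 6 of 66 had an unadjusted p under 0.05 between foretinib and DMSO, beside 9.07% of all genes, 0 of 66 between cabozantinib and DMSO, beside 1.31%, and 9 of 66 between foretinib and cabozantinib, beside 9.9%. DESeq2 called 2 of 66, PDPR and GBE1, in both comparisons with foretinib, where it called 5.19% of all genes against DMSO and 4.91% against cabozantinib. It called 0 of 66 between cabozantinib and DMSO, beside 0.388%.

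On the side of pyruvate use, PDPR, a regulatory subunit of pyruvate dehydrogenase phosphatase, averaged 2149 ± 1044 normalised reads with foretinib, 599 ± 367 with cabozantinib and 569 ± 96.2 with DMSO (SD, n = 3 each). The foretinib libraries were above all others, at a log2 fold change against DMSO of 1.80 (0.35 to 3.25, adjusted p 0.482). The nearest pair for PDPR was 1107 in foretinib replicate 4 and 1023 in cabozantinib replicate 5. In the pentose phosphate pathway, which branches off at glucose 6-phosphate, TKT, transketolase, averaged 13816 ± 1288 with foretinib, 10181 ± 758 with cabozantinib and 9872 ± 2107 with DMSO. Its foretinib libraries also stood above all others, at 0.50 against DMSO (0.09 to 0.92, adjusted p 0.497). PGD, which releases CO2 in that pathway, gave 0.69 for foretinib against cabozantinib (0.06 to 1.32, adjusted p 0.481). These 3 are the genes of their lists with the smallest p and were chosen by it. Over all genes, 3.99% lay wholly higher with foretinib than with DMSO, and 4.49% higher than with cabozantinib.

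Among the partners of HIF, ELOC and RBX1 are subunits of the VHL ubiquitin ligase. ELOC averaged 18806 ± 816 normalised reads with foretinib, 24262 ± 1783 with cabozantinib and 23360 ± 2026 with DMSO, at -0.31 for foretinib against DMSO (-0.60 to -0.02, adjusted p 0.531). RBX1 averaged 1251 ± 662 with foretinib, 2533 ± 338 with cabozantinib and 2313 ± 428 with DMSO, at -1.05 (-2.06 to -0.05, adjusted p 0.531). For both genes every foretinib library lay below every other library. The nearest pair for RBX1 was 1801 in foretinib replicate 1 and 1821 in DMSO replicate 2. Of all genes, 7.69% lay wholly lower with foretinib than with DMSO, and 9.7% lower than with cabozantinib. ELOC and RBX1 had the smallest p of the 12 tested genes in their list and were chosen by it. Of these 12, 6 had a log2 fold change above 0 and 6 below 0 for foretinib against DMSO, with a median of -0.06. GBE1, the glycogen branching enzyme and a hypoxia-inducible gene, averaged 5.79 ± 9.14 with foretinib, 546 ± 448 with cabozantinib and 692 ± 297 with DMSO (limma adjusted p 0.358 for foretinib against DMSO, DESeq2 3.4e-05). Its foretinib libraries had 0, 16.3 and 1.05 normalised reads, so that it passed the filter through the other groups. GBE1 had the smallest p of the 26 tested genes in its list for foretinib against DMSO and was chosen by it.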

How the data were processed

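The authors deposited 1 table of signal values, the read count of each gene divided by 1 size factor per library. Per the submitters' processing notes, reads were processed on the build hs37d5 with tools that include HTSeq, TopHat2 2.0.13, DESeq2 and Cufflinks 2.2.1. Their roles, the gene annotation, the strand setting and the handling of reads shared with pseudogenes are not given in these sources, so values of GAPDH, LDHA, ENO1, PGK1, PGAM1, TPI1 and other genes with near-identical copies are uncertain in that respect. Whole reads were recovered from each library by dividing its values by their smallest step, which came out whole for 100% of them within 1e-06 of a read. Their number limits the precision of scarce genes.

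All 9 libraries entered 1 limma 3.58.1 model (R 4.3.3, mean-variance trend) on log2(value + 1), over the 12642 genes that reached 10 in at least 3 libraries, with Benjamini-Hochberg adjustment over all of them within each of the 3 comparisons. Fold changes are on that scale, where a library at or near 0 can widen or turn round the change of a scarce gene, as for EGLN3 with foretinib over DMSO (log2 fold change -2.70, ratio of means 1.01). Sums were compared by two-sided exact permutation over libraries. edgeR 4.0.16 and DESeq2 1.42.0 were run on the recovered reads as alternatives, with other pseudocounts, filters, scalings, a replicate block and each library left out. The fits were run on simulated counts with changes planted in genes at a mean of 1000 or more. A pass mark was set for limma alone, at a fixed dispersion not taken from these libraries. The simulation therefore does not cover scarce members.

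The members, the pathway lists and the comparisons were chosen with earlier results of these data known. Values in every library are given for up to 6 members per comparison with the smallest p, up to 6 per comparison whose groups did not overlap (mean of at least 200), the 10 most abundant, and HIF1A, EPAS1, LDHA, SLC2A1, VEGFA, PFKFB3 and CA9. Pathway genes named are among the 2 with the smallest p per list and comparison. The p-values measure the spread between cultures of 1 cell line.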

Additional observations from a re-analysis of the deposited data

How the results depend on the processing

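The number of members called was 0 in each comparison under every alternative run except DESeq2 on the whole reads, which called 4 between foretinib and DMSO and 3 between foretinib and cabozantinib; the cause was not tested. Sums were recomputed under other scalings and with each library left out. Each of the 9 log2 ratios of the summed levels moved by less than the pooled SD of the log2 sums within the groups compared. No p was computed for the sums under the alternatives. The log2 ratio of the HIF factors and other hypoxia-inducible genes for foretinib against cabozantinib ran from -0.02 to 0.24. Of 1701 fold changes of members under the alternatives, 7 passed the threshold, all with DESeq2. The other 1694 did not, counting those without a DESeq2 adjusted p. As the main fit called no member, this count says little about sign. Some uncalled fold changes did change sign. KDM3A, foretinib against DMSO, ran from -8.34 to 0.57, and HIF1A, foretinib against cabozantinib, changed sign in 6 of 16 settings. Others kept their sign in every setting, such as PKM for foretinib against DMSO (0.36 to 0.54). Members below a mean of 500 gave no value under the filter at that mean. The median of all genes for foretinib against DMSO was -0.34, and it was -0.37 with TMM scaling and -0.04 with quantile normalisation.

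Shared title numbers were not treated as pairs: over 5 same-numbered pairs the correlation of deviations from the group mean was -0.02 to 0.03, beside -0.03 to 0.04 over 22 other pairs. With the replicate block, 0 members were called in each comparison, and the log2 fold change of PKM, foretinib against DMSO, was 0.54 (adjusted p 0.421). Scarce members rest on few reads in some libraries, where a value near 1 is a single read; whether depth sets their values was not tested.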

Other observations

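Isozyme make-up was compared per kilobase, as the share of 1 gene in the sum of a pair, over 5 pairs. LDHA made up 43.5% ± 9.96 of LDHA plus LDHB with foretinib, 42.1% ± 2.38 with cabozantinib and 36.9% ± 4.48 with DMSO (SD, n = 3 each). The exact permutation p, two-sided, was 0.4 for foretinib against DMSO and 0.2 for cabozantinib against DMSO. ENO2 made up 21.1% ± 1.44 of ENO1 plus ENO2 with foretinib, 20.0% ± 2.94 with cabozantinib and 18.1% ± 3.92 with DMSO, with exact permutation p of 0.3 and 0.7 in the same comparisons. PDK3 made up 85.9% ± 5.54 of PDK1 plus PDK3 with foretinib, 87.1% ± 3.83 with cabozantinib and 74.0% ± 15.2 with DMSO, where DMSO replicate 2 stood lowest at 56.8%. These shares lean on the lengths used, 8591.5 bases for PDK1 and 1921 for PDK3. Before division by length the 2 genes averaged 2035 and 2525 normalised reads. PFKM made up 24.0% ± 19.5 of PFKM plus PFKP with foretinib, 10.8% ± 3.36 with cabozantinib and 16.0% ± 6.38 with DMSO. BNIP3L made up between 51.3% and 52.7% of BNIP3 plus BNIP3L in the group means.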
